A study of Mus musculus with 3 samples.

Results

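Transforming growth factor-β (TGF-β) signals through Smad2 and Smad3 to genes that build the extracellular matrix, and to the transcription factors that drive the epithelial-mesenchymal transition (EMT), in which cells lose their junctions and gain motility. Bone morphogenetic proteins (BMPs) usually signal through Smad1, Smad5 and Smad8 instead. Fibroblasts such as those of the periodontal ligament already carry a mesenchymal programme, and in them these genes are known for matrix production and wound repair. Described here are 8 genes of this kind, chosen by gene symbol: Tgfbi, Ltbp1, Ccn1 and Ccn2, which encode secreted proteins, Pmepa1, which encodes a membrane protein that restrains Smad signalling, and the transcription factor genes Snai1, Snai2 and Twist1. They were read by 19 of the 45101 probe sets on the array, each annotated with that symbol alone, and stand for 8 of 18193 genes. Pmepa1 and Snai1 are also on the list of BMP-2-induced genes that the study drew from these same arrays, so their direction with BMP-2 is not independent evidence. The study took that list at more than 2-fold, a level that the ratio calculated here for Snai1 did not reach. The study does not state how its fold changes were calculated, so they may be a different measure.

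All RNA came from PDL-L2, an immortalised cell line derived from mouse periodontal ligament fibroblasts, so a single line stands for the tissue. Cells were transfected with a pool of control siRNAs (siCont) or with a pool of siRNAs against endoglin (siENG), the accessory TGF-β receptor. After 48 h they were exposed for 12 h to vehicle or to recombinant human BMP-2 at 250 ng/ml, in differentiation medium with ascorbic acid and β-glycerophosphate. Each condition was read on 1 array, called here the vehicle array (siCont, vehicle), the BMP-2 array (siCont, BMP-2) and the siENG array (siENG, BMP-2), and signals are given in that order. TGF-β was not among the listed treatments, and none of the 3 arrays was of siENG cells with vehicle. An effect of siENG without BMP-2 therefore cannot be told apart from one on the response to BMP-2. Conditions without a second array allow no test, so no p-value is given and every difference below is one between single arrays. In these bulk samples, fewer expressing cells and less RNA per cell cannot be told apart.

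The siENG array was brighter than the others, with 2% trimmed means of 141, 143 and 166 on the vehicle, BMP-2 and siENG arrays. Among probe sets with a signal of at least 23.0, the median signal over all arrays, the median log2 ratio of the BMP-2 to the vehicle array was 0.0077. That of the siENG array was 0.21 to the BMP-2 array and 0.22 to the vehicle array. Ratios to the siENG array are therefore called relative below where this median was subtracted, and ratios of BMP-2 over vehicle are as deposited. The brighter probe set of endoglin had signals of 286, 299 and 108, which is a relative log2 ratio of -1.67 for siENG over siCont. As a guide to precision, the robust SD of the log2 ratio over all probe sets of similar mean signal is given beside a ratio, which holds real differences as well as noise. The 27 control probe sets for Bacillus transcripts, which mouse RNA does not hold, reached at most 13.1, and a signal within that range is called background. Of 10 measured markers of ligament fibroblasts, 9 lay above that level on every array, with asporin (Aspn), known from the ligament, the exception at 0.8 to 8.3. Of the markers of epithelium 1 of 9 did so, of endothelium 0 of 8, of leukocytes 2 of 7 and of smooth muscle and pericytes 4 of 7. The endothelial Pecam1 and Cdh5, the leukocyte gene Ptprc and the smooth muscle gene Myh11 were within background on all 3 arrays. Other markers were above it on all 3 arrays and differed between them, among them Krt19 of epithelium (25.5, 54.5 and 100.2), Cd68 of macrophages (71, 50 and 117.6) and Des of muscle (53.5, 13.9 and 74.2). Kdr of endothelium (4.2, 25.8 and 20) was above it on the BMP-2 and siENG arrays only. The summed signals of these 4 lists were 155, 198 and 176 for epithelium, 33.5, 56.0 and 65.3 for endothelium, 146, 135 and 222 for leukocytes and 7666, 7165 and 8566 for smooth muscle and pericytes, the last mostly from Acta2. Their part in the results below was not tested.

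BMP-2 was accompanied by higher signals of 7 of the 8 genes in siCont cells, and by a ratio of 2 or more in 2 of them, Tgfbi and Pmepa1. None had a ratio of 0.5 or less. Over all 10810 genes with a signal of at least 23.0 on either array, 1.80% reached a ratio of 2 and 1.57% lay at 0.5 or below. The median log2 ratio was 0.67 for the 8 genes and 0.01 for all genes. In 6 of the 8 the log2 ratio was larger than the robust SD, the exceptions being Twist1 and Ltbp1. The shares of all genes that were higher, or that lay beyond their robust SD, are not given here. Nothing about the members is therefore read from these counts of 7 and 6. Pmepa1 was past the limit of 23.0 on both arrays, whereas Tgfbi passed it through the BMP-2 array alone, where it was high. The place of Tgfbi in the count at a ratio of 2 is thus partly fixed by the limit.

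**Figure D1:**
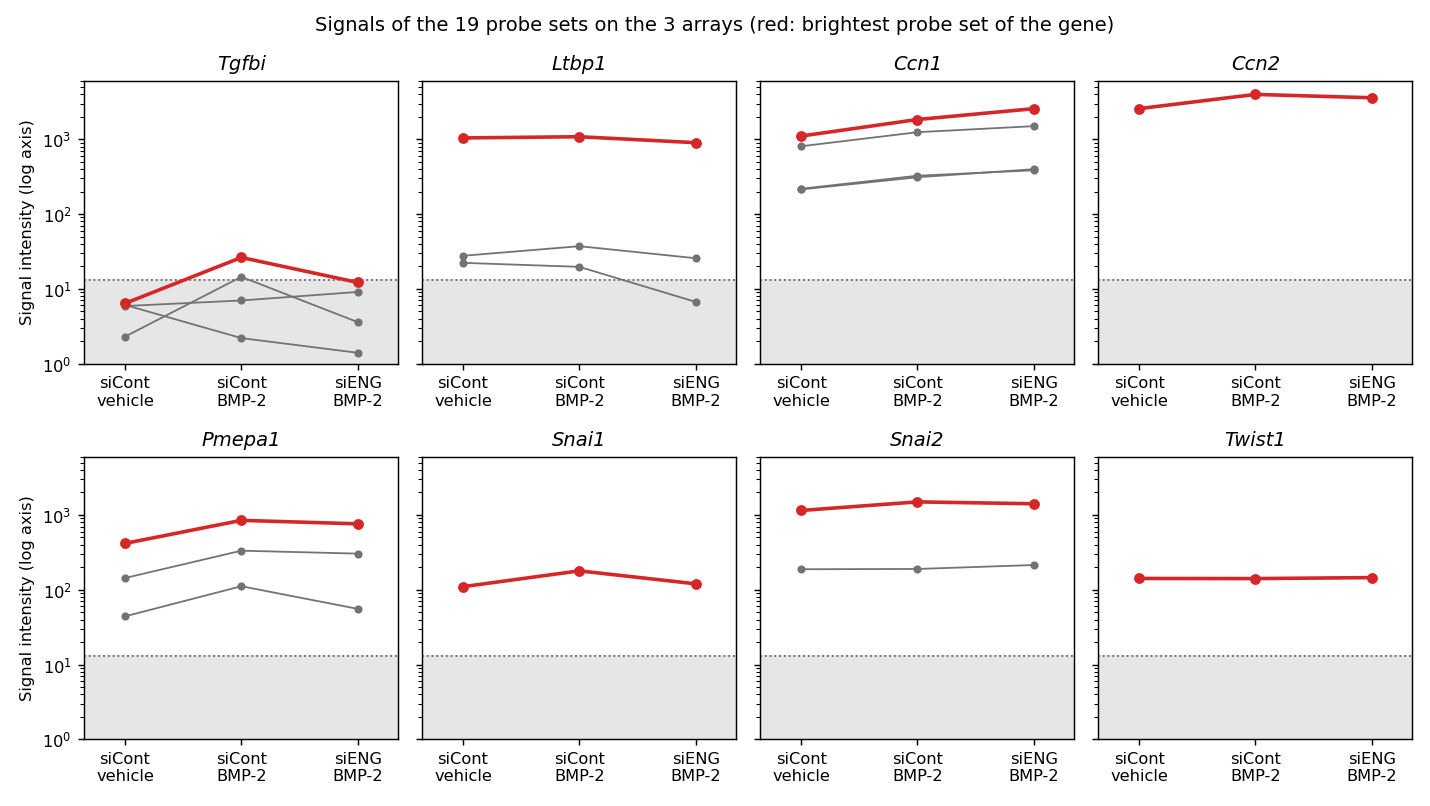
Signal intensity (log axis) of each of the 19 probe sets on the 3 arrays, 1 panel per gene and 1 line per probe set, with the brightest probe set of the gene in red. The grey band ends at 13.1, the highest signal of the Bacillus control probe sets. Tgfbi lies mostly in the band, Ccn1 is highest on the siENG array in all 4 probe sets, and Pmepa1 and Snai1 are highest with siCont and BMP-2.

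Tgfbi encodes a secreted matrix protein with fasciclin domains that binds collagen and integrins, and it takes its name from its induction by TGF-β. Its brightest probe set, 1437463_x_at, had signals of 6.4, 26.3 and 12.2. Only that of the BMP-2 array was above background, so the log2 ratio of 2.04 with BMP-2 is better given as at least 2.01-fold higher, and the siENG level as at least 2.01-fold lower than with siCont, both as deposited. The robust SD for probe sets of that signal was 0.71. The second probe set had signals of 5.9, 7.0 and 9.1. The third had 2.3, 14.5 and 3.6, and the fourth 6.1, 2.2 and 1.4. Of the 12 signals of Tgfbi, 10 were within background, and the 4 log2 ratios of BMP-2 over vehicle ran from -1.47 to 2.66. The order of its levels across conditions was therefore not settled by these probe sets.

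Ltbp1 encodes the latent TGF-β binding protein that tethers the inactive ligand to the matrix. Its brightest probe set had signals of 1042, 1081 and 900, a log2 ratio of 0.05 with BMP-2 against a robust SD of 0.11. Levels with vehicle and BMP-2 thus did not differ beyond that spread. With siENG the relative log2 ratio was -0.47 against a robust SD of 0.27, and -0.26 as deposited. The other probe sets were dim, with signals of 27.7, 37.2 and 25.7 in one and 22.3, 19.7 and 6.7 in the other. Their relative log2 ratios with siENG, -0.74 and -1.77, were negative as well, and the latter rests on a siENG signal within background.

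Ccn1 (Cyr61) and Ccn2 (Ctgf) encode matricellular proteins of the CCN family, which bind integrins and are known as rapid targets of TGF-β, of YAP with TEAD factors and of serum. Both were bright and had similar log2 ratios with BMP-2, and they parted with siENG. The brightest probe set of Ccn1 had signals of 1103, 1836 and 2563, highest on the siENG array. Its log2 ratio with BMP-2 was 0.73 (robust SD 0.11), and the other 3 probe sets had 0.62, 0.58 and 0.54. All 4 probe sets placed Ccn1 higher with BMP-2 than with vehicle, by 1.45- to 1.66-fold. For comparison, the log2 ratios of probe sets of the same gene spanned a median of 0.14 over 2496 genes with several probe sets at 152 or above. The siENG array was the brightest in all 4, and Ccn1 was the only one of the 8 genes with a relative log2 ratio above 0 in its brightest probe set. That ratio was 0.27 against a robust SD of 0.22, while those of the other 3 were 0.06, 0.03 and 0.15, within their robust SDs. The higher Ccn1 signals on the siENG array thus exceeded the general brightness of that array by more than the robust SD in 1 of 4 probe sets. That one, 1416039_x_at, carries the suffix x_at, as do the dimmest of the 4 and the brightest of Tgfbi. The suffix marks probes that may also match other transcripts.

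Ccn2 was read by 1 probe set, with signals of 2567, 3976 and 3585. The log2 ratio with BMP-2 was 0.63 (robust SD 0.11), a ratio of 1.55. With siENG its relative log2 ratio was -0.36 (robust SD 0.22), and -0.15 as deposited. Ccn2 was thus lowest with siCont and vehicle, and its place on the siENG array lay between the siCont arrays as deposited. Relative to all probe sets it was 0.26 above vehicle on the log2 scale (robust SD 0.22).

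The promoter windows of Ccn1 and Snai1 are shown because both genes were higher with BMP-2 and lay on opposite sides of 0 with siENG. Each runs from 250 bases before the RefSeq start to the first 30 transcribed bases in GRCm38.p6. Capitals mark matches to any of the motifs searched.
Ccn1, chr3:145649956-145650235, minus strand: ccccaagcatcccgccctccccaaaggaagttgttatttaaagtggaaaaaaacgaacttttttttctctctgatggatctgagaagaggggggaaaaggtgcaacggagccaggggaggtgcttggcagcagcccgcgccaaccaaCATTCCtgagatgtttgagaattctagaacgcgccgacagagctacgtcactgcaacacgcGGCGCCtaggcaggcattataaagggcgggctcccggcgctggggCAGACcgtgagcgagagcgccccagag
Snai1, chr2:167537945-167538224, plus strand: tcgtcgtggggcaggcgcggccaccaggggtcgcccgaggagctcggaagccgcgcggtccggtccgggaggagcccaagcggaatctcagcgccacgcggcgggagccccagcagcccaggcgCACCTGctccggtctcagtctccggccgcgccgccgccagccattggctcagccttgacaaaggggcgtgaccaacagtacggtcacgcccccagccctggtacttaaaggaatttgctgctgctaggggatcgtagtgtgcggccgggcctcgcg
The motifs, searched on both strands, were CAGAC (Smad-binding element), GGCGCC (its GC-rich form), CAGGTG (the E-box read by Snail proteins), GGAATG (TEAD), TGANTCA (AP-1) and the CArG box of SRF. In Ccn1, CAGAC lay at bases 4 to 8 after the start, GGCGCC at -42 to -37 and GGAATG on the other strand at -103 to -98. In Snai1 the only match was the Snail E-box, read on the other strand at -126 to -121. Of all 32851 RefSeq windows of this length, 46.8% held CAGAC, 10.9% GGCGCC, 19.1% CAGGTG, 13.9% GGAATG, 7.46% TGANTCA and 1.56% the CArG box. Windows were found for 5 of the 8 genes. That of Tgfbi held CAGAC at -239 to -235 and at -85 to -81 and GGCGCC at -77 to -72. That of Twist1 held CAGAC at -9 to -5, and the 2 windows of Ltbp1 held CAGAC only. The matches are letters in a window and were set against no binding data. Pmepa1, Ccn2 and Snai2 are named only.

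Pmepa1 encodes a membrane protein that sequesters Smad2 and Smad3 and recruits ubiquitin ligases, a negative feedback on TGF-β signalling. It had the highest ratio with BMP-2 of the members above background on every array. The brightest probe set, 1422706_at, had signals of 416, 847 and 761. The second had 144, 333 and 304, and the third 44.1, 112 and 55.6. Each was lowest on the vehicle array and highest on the BMP-2 array. Their log2 ratios with BMP-2 were 1.02, 1.21 and 1.34, against robust SDs of 0.15, 0.19 and 0.29. Among the 6723 genes with a signal of at least 152 (the 75th percentile) on either array, its ratio took rank 34. At that limit 0.506% of genes reached a ratio of 2, among them 1 of the 6 members left, Pmepa1. With siENG its relative log2 ratios were -0.36, -0.34 and -1.21, with robust SDs of 0.27, 0.33 and 0.40. The dimmest probe set thus placed the siENG level near that of vehicle, at 55.6 against 44.1, whereas the brighter ones placed it near that of siCont with BMP-2.

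Snai1 encodes Snail, a zinc-finger repressor of E-cadherin and a driver of EMT. Its single probe set, 1448742_at, had signals of 110, 179 and 120. Levels with vehicle and with siENG lay close together, and that with siCont and BMP-2 stood above both. The log2 ratio with BMP-2 was 0.70 (robust SD 0.26), a ratio of 1.63 and rank 96 of the 6723 genes. That ratio is below the level of 2 at which the study listed Snai1. How the study calculated its fold changes is not stated, so the measures may be unlike. The relative log2 ratio with siENG was -0.79 (robust SD 0.39), and -0.58 as deposited. Of 7128 genes with a signal of at least 152 in that comparison, 98.1% had a higher relative ratio. Snai1 passed the limit of 152 through the BMP-2 array alone, where it was high. Its places in both rankings are therefore partly fixed by the limit. For siENG with BMP-2 over siCont vehicle the relative log2 ratio was -0.09, and 0.13 as deposited, within the robust SD of 0.37 on either scale.

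Snai2 encodes Slug, the Snail relative of neural crest and mesenchyme. The brightest probe set had signals of 1148, 1495 and 1412, a log2 ratio of 0.38 with BMP-2 (robust SD 0.11). The other had 188, 190 and 214, a log2 ratio of 0.01 (robust SD 0.21). The brighter one, 1447643_x_at, carries the same suffix x_at, and the other does not. The 2 probe sets thus disagreed on whether Snai2 was higher with BMP-2. Relative log2 ratios with siENG were -0.29 and -0.03, with robust SDs of 0.22 and 0.34.

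Twist1 encodes a basic helix-loop-helix factor of mesenchyme and cranial development. Its probe set had signals of 142, 141 and 145, close together on all arrays. The log2 ratio with BMP-2 was -0.0041 and the relative log2 ratio with siENG -0.17, with robust SDs of 0.26 and 0.39. As deposited the latter was 0.04, so its sign depends on the scaling.

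**Figure D2:**
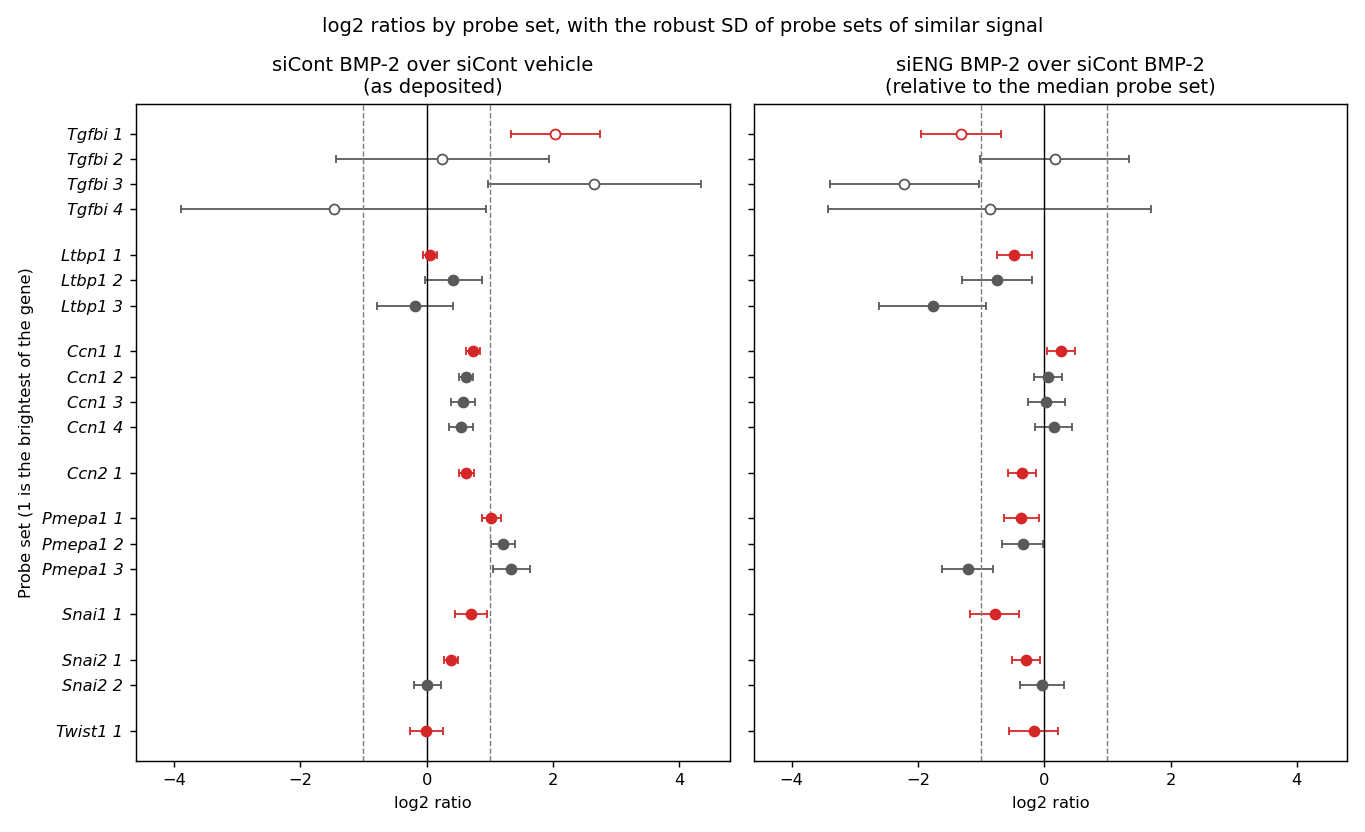
log2 ratio of each probe set of the BMP-2 to the vehicle array (left, as deposited) and of the siENG to the BMP-2 array (right, relative to the median probe set), with probe sets numbered from the brightest of each gene, which is red. Bars are the robust SD of all probe sets of similar signal, dashed lines mark ratios of 2 and 0.5, and open points had a signal within background on at least 2 arrays. All 3 Pmepa1 points on the left lie at 1.02 or above, and the Tgfbi points are open and scattered.

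With endoglin knockdown, 1 of the 8 genes, Tgfbi, had a relative ratio of 0.5 or less against siCont with BMP-2, and 0 had a ratio of 2 or more. Over all 10854 genes with a signal of at least 23.0 on either array, 2.70% had a relative ratio of 0.5 or less and 2.32% one of 2 or more. The median relative log2 ratio was -0.36 for the 8 genes and 0.03 for all genes, and 7 of the 8 lay below 0. Tgfbi passed the limit through the BMP-2 array alone and its siENG signal was within background, so nothing about the members is read from its count. As deposited the medians were -0.15 and 0.24, and 6 of the 8 lay below 0. The share of all genes below 0 is not given here, so these counts of sign are not read as a result about the members. The siCont BMP-2 array is part of both comparisons, so a high reading on it raises a ratio of the first and lowers that of the second. Set side by side, the log2 ratios of BMP-2 over vehicle and of siENG over siCont were 1.02 and -0.36 for Pmepa1, 0.70 and -0.79 for Snai1 and 0.63 and -0.36 for Ccn2. They were 0.73 and 0.27 for Ccn1, 0.38 and -0.29 for Snai2 and 0.05 and -0.47 for Ltbp1.

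A comparison that leaves out the shared array is that of siENG with BMP-2 against siCont with vehicle. Both the siRNA and BMP-2 differ in that comparison, so their effects cannot be told apart. Of the 8 genes, 7 had a signal of at least 23.0 there, Tgfbi being the exception. Ccn1 stood highest, at a relative log2 ratio of 0.995 (robust SD 0.22) and 1.22 as deposited, with 0.67, 0.60 and 0.68 relative in its other probe sets, so the highest value is that of 1416039_x_at. Its rank was 79 of 7130 genes with a signal of at least 152. Its ratio was 1.99 relative and 2.32 as deposited, so that 0 of the 7 genes reached 2 relative to the median and 1 did as deposited. Over all genes these shares were 2.25% and 3.99%. None of the 7 lay at a relative ratio of 0.5 or below, where 2.85% of all genes lay. The 3 probe sets of Pmepa1 gave relative log2 ratios of 0.65, 0.86 and 0.11, with robust SDs of 0.28, 0.35 and 0.44. Ltbp1 lay at -0.43 (robust SD 0.28), and Snai1, Snai2 and Twist1 within the robust SD of 0. The median of the 7 was 0.08, against 0.03 over all genes.

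Other genes of these pathways were read from lists written from background knowledge, some of which share genes such as Tagln and Postn. Of 23 further Smad2/3-dependent TGF-β targets past the limit of 23.0, BMP-2 was accompanied by a ratio of at least 2 in 5 and of at most 0.5 in 0, against 1.80% and 1.57% of all genes, and their median log2 ratio was 0.03. The 5 included Smad7, the inhibitory Smad, at 1.96, the zinc-finger gene Klf10 at 1.32 and the AP-1 gene Junb at 1.31. With siENG their relative log2 ratios were -0.45, 0.28 and -0.85. The others were Skil, a repressor of Smads (1.14), and Bhlhe40 (1.03). With siENG their relative log2 ratios were -0.65 (robust SD 0.22) and 0.98 (robust SD 0.27). Smad7, Klf10, Junb and Skil are on the list of BMP-2-induced genes that the study drew from these arrays, so the count is not independent evidence of direction. For Smad7 the study also reported induction by BMP-2 in separately prepared samples, measured by real-time PCR. Of the 23 genes, 1 reached a relative ratio of 2 with siENG, the early response gene Ier3 (log2 1.03), against 2.32% of all genes, and the median was 0.04. Among its matrix genes, Col1a1, Col1a2, Col3a1, Fn1 and Lox had log2 ratios with BMP-2 between -0.06 and 0.06, the protease inhibitor Timp3 -0.20 and the matrix protein periostin (Postn) 0.31, each with a robust SD of 0.11.
Of 15 other EMT factors and markers past that limit, 1 reached a ratio of 2 with BMP-2 (Krt18) and 1 lay at 0.5 or below (Cldn1). Over all genes the shares were 1.80% and 1.57%. Krt18 and Cldn1 were each past the limit on 1 of the 2 arrays only, and the median log2 ratio of the 15 genes was 0.06. With siENG 0 reached a relative ratio of 2, against 2.32% of all genes. At 0.5 or below lay 3, Snai3, Krt18 and Epcam, against 2.70% of all genes, and the median was -0.20. The siENG signals of these 3 genes, 7.5, 7.6 and 11.9, were within background, and the genes were kept through the BMP-2 array alone. Zeb2, a repressor of E-cadherin, had signals of 302, 434 and 415, which is 0.52 on the log2 scale with BMP-2 (robust SD 0.17). Its relative Zeb1 had 387, 371 and 295, a log2 ratio of -0.06. With siENG the relative log2 ratios were -0.28 for Zeb2 (robust SD 0.30) and -0.54 for Zeb1 (robust SD 0.33). Twist2, the paralogue of Twist1, had 200, 213 and 203. E-cadherin (Cdh1) itself had signals of 9.1, 9.9 and 15.0, the first 2 within background.

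Of the other 4 CCN genes, 2 were past the limit, with Ccn4 at log2 0.51 with BMP-2 and Ccn5 at -0.37. Their relative log2 ratios with siENG were -0.30 and -0.54. Of 21 targets of YAP/TAZ or of SRF other than Ccn1 and Ccn2, BMP-2 ratios were at least 2 in 0 and at most 0.5 in 0. Over all genes these shares were 1.80% and 1.57%, so a count of 0 among 21 genes is near them. The median was -0.06 on the log2 scale. With siENG the counts were 0 and 0, against 2.32% and 2.70% of all genes, and the median was 0.05. The immediate early gene Egr1 had the largest relative log2 ratio of them, 0.86, ahead of the actin-associated Tagln at 0.61 and Cnn2 at 0.59, as against 0.27 for Ccn1.
Of 13 genes of TGF-β storage and activation past the limit, 2 reached a ratio of 2 with BMP-2, against 1.80% of all genes. They were the ligand Tgfb3 (log2 1.06) and Adamtsl2, with signals of 13.8, 51.0 and 33.4. Adamtsl2 passed the limit in that comparison through the BMP-2 array alone, where it was high. Tgfb3 is on the same list of the study, which also reported its induction by real-time PCR in separately prepared samples. Thrombospondin 1 (Thbs1), an activator of latent TGF-β, had signals of 2254, 2449 and 1468, and lay at -0.95 relative on the log2 scale with siENG. Bmp1, a protease that processes matrix precursors, had a relative log2 ratio of -0.78, and the latent TGF-β binding protein Ltbp3 one of 0.17. Itgb8 was the 1 gene of that list with a relative ratio of 0.5 or less, at signals of 53.5, 76.7 and 37.1, against 2.70% of all genes.

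Among the paralogue of Pmepa1, Ldlrad4, and 7 ubiquitin ligases of its family of partners, 0 had a ratio of 2 or more or of 0.5 or less in either comparison. For all genes the shares were 1.80% and 1.57% with BMP-2 and 2.32% and 2.70% with siENG. The ligase Smurf2 had log2 ratios of 0.38 with BMP-2 and -0.77 with siENG (relative), Itch of -0.23 and 0.56, and Wwp1 of 0.32 and 0.42. Of 7 relatives and partners of Twist1 past the limit, 0 reached a ratio of 2 with BMP-2, against 1.80% of all genes. Tcf3 and Tcf4 had log2 ratios of -0.14 and -0.10. Tcf15 was the 1 gene of that list with a relative ratio of 0.5 or less with siENG, against 2.70% of all genes, at a siENG signal of 12.0 that was within background. Of 7 relatives of Tgfbi and integrins, 0 had either ratio in either comparison, against the same shares of all genes. Postn, the fasciclin protein of the ligament, had signals of 4428, 5491 and 4614 and log2 ratios of 0.31 and, relative, -0.46. The integrin genes Itga3 and Itgb5 had log2 ratios of -0.50 and 0.42 with BMP-2.

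Genes of like pattern were sought by the distance between the 2 log2 ratios, BMP-2 over vehicle and siENG over siCont with BMP-2, among 7180 other genes with a signal of at least 152 on any array. The nearest to Snai1 were Kbtbd4 (distance 0.021) and Lfng (0.057), and 38 genes lay within 0.25. The nearest to Pmepa1 were Slc6a8 (0.089) and Sox2 (0.095), with 18 within 0.25, and to Ccn1 Clcn5 (0.062) and Zfp994 (0.070), with 17. Ccn2 lay nearest to Zmiz1 and Dnpep, with 120 genes within 0.25, and Snai2 to Nfya and Phldb1, with 492. Ltbp1 lay nearest to Rrp7a and Bdp1, with 746, and Twist1, among 7181 genes, to Prmt3 and Rab14, with 2438. For Tgfbi no likeness is given, since its ratios rest on signals within background. Each distance rests on 3 arrays.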

How the data were processed

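Total RNA of PDL-L2 cells under 3 conditions was hybridised to Affymetrix mouse genome arrays, 1 per condition. Deposited values were linear signal intensities, made by the authors with GCOS 1.4 according to the submitters' processing notes. For the calculation and scaling of signals, a method was not given in the sources used here. Precision is limited by the number of arrays.

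Signals listed at 0 (3 with vehicle, 1 with siCont and BMP-2) were set to 0.1. Leaving out 64 control probe sets, 34945 had a single gene symbol in the platform annotation, updated through the RefSeq table of GRCm38.p6, and 932 had several and named no gene. A gene was represented by its probe set of highest mean log2 signal and kept at a signal of at least 23.0, the median. Robust SDs (1.4826 times the median absolute deviation) were taken in 20 bins of mean signal. Of the genes listed, some, among them Klf8, Fbn1, Lrrc32 and Runx2, are not analysed here, and Plap1 is a name of Aspn. Genes were named by rule: all members, endoglin, up to 3 genes of each list with the largest ratios at a signal of at least 152, and the 2 genes nearest to each member but Tgfbi. Skil, Bhlhe40, Ier3, Krt18, Cldn1, Snai3, Epcam, Tcf15, Adamtsl2, Itgb8, Cdh1, Ltbp3 and Ldlrad4 were named after their values were seen. So were the collagens, Fn1, Lox, Timp3, Aspn and the cell type markers. Of the fibroblast markers the rule named Col12a1, Postn and Pdgfrb, with log2 ratios with BMP-2 of 0.05, 0.31 and 0.38. Their relative log2 ratios with siENG were -0.87, -0.46 and -0.44, each with a robust SD of 0.22. Of the smooth muscle markers it named Smtn and Acta2, with -0.48 and -0.08 with BMP-2 and, relative, -0.09 and 0.04 with siENG.

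Members, lists and rules were chosen with earlier results of these data known. Alternatives were 2 other signal limits, other scalings, a floor at background and other ways to combine probe sets. The calculation was tested on simulated data. Python 3.11.15, numpy 2.4.6, pandas 2.3.3, statsmodels 0.14.6 and matplotlib 3.10.9 were used.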

Additional observations from a re-analysis of the deposited data

How the results depend on the processing

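No paired analysis was possible because each condition has 1 array, and for the same reason no array could be left out. Members reaching a ratio of 2 with BMP-2 numbered 2 as reported. The number was 1 with a limit at the 75th percentile of signal and 1 without probe sets within background on 2 or more arrays, a setting chosen after seeing the data, since both drop Tgfbi. It was also 1 under quantile normalization, under lowess centring and under a common trimmed mean, where Pmepa1 lay between 0.990 and 0.998 on the log2 scale, and 1 with the mean over probe sets, where Tgfbi lay at 0.87. With siENG over siCont, the number at a relative ratio of 0.5 or less was 1 as reported. It was 0 with the limit at the 75th percentile, 0 with the mean over probe sets, 0 without the probe sets within background and 2 where any probe set sufficed. For siENG BMP-2 over siCont vehicle the number at a ratio of 2 or more was 0 as reported, 1 with no signal limit and 1 as deposited.

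The median log2 ratio of the members ran from 0.60 to 0.67 with BMP-2 and from -0.39 to -0.15 with siENG over siCont, always on the same side of 0 under the alternatives run. Of 189 values of single genes under an alternative, 168 moved by less than the robust SD and 21 by more. Part of the 168 could not move. Ccn2, Snai1 and Twist1 have 1 probe set each, so other ways to combine probe sets leave them as they were. The floor at background changed Tgfbi only. The tally is therefore no measure of how stable the values are. For siENG over siCont, Twist1 alone changed sign, to 0.04 as deposited. For siENG BMP-2 over siCont vehicle, Snai1 and Twist1 changed sign as deposited and Tgfbi with a floor at background, to -0.22, and with the mean over probe sets, to -0.20.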
